A study of Isodiametra pulchra with 2 samples.

Results

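The cells described here are droplet barcodes of *Isodiametra pulchra* hatchlings that carried transcripts of TRINITY_DN31468_c1_g5 or TRINITY_DN24391_c1_g2, 2 features of the transcriptome assembly to which the reads were assigned. A barcode was a member when the UMIs of both features (unique molecular identifiers, 1 per captured RNA molecule) summed to at least 1 in library 1 or at least 2 in library 2. By this rule 384 of 7758 called barcodes were members, 53 of 4483 in library 1 and 331 of 3275 in library 2. They were set against the 4430 and 2944 other called barcodes of the same library. The members were selected on measured UMIs of these 2 features, so the levels of both are given as a description. The prefix TRINITY_, which every identifier carries, is left out from here on.

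*Isodiametra pulchra* is a small marine acoel, a soft-bodied worm without a through gut, whose body holds epidermal, muscle, nerve, gland, digestive and germ cells together with stem cells called neoblasts. In acoels and other flatworm-like animals neoblasts are the dividing cells of the body outside the germ line, and differentiated cells are renewed from them. In droplet sequencing, cells of 1 kind are recognised by transcripts that recur in the same barcodes. Free RNA in the suspension adds a low count of abundant transcripts to every droplet, empty ones included. The deposited files pair no identifier with a gene name, so the features below are given by identifier without a role, and the members are not called a cell type.

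The study comprised 2 droplet libraries of whole wild type hatchlings fed on diatoms, from dissociation with collagenase, which form 1 group. Per the labels, 10x Genomics 3′ kits of versions 2 and 3 were used, and which library used which kit is not stated in words. Nothing in the labels says whether the libraries came from separate batches of animals, so p-values below rest only on the spread between these 2 libraries, which may be technical. That spread is estimated from 4 sums with pooling across features, so it is not the spread of each feature alone. The depth was 6581711 UMIs from 250856 barcodes for library 1. For library 2 it was 34060611 UMIs from 1481007 barcodes, in each case over 23786 features. Barcodes were called from 166 UMIs in library 1 and from 1027 UMIs in library 2. The most common total of empty droplets was 60 UMIs in library 1 and 320 UMIs in library 2. No 16-base barcode was called in both libraries (0 shared).

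Most members came from library 2. The share of called barcodes meeting the rule was 1.18% in library 1 (exact 95% binomial interval 0.887 to 1.54) and 10.1% in library 2 (9.10 to 11.2). The minima differ between the libraries, so these shares are not compared. With every called barcode thinned to 166 UMIs, 29 of 4483 barcodes in library 1 (0.647%, 0.434 to 0.928) and 116 of 3275 in library 2 (3.54%, 2.94 to 4.23) still carried a UMI of either feature. Depth per barcode is equal in this difference, while kit and run cannot be told apart. All intervals of shares, levels and folds cover counting error only.

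The rule was also applied to empty droplets and to called barcodes thinned to their depth. Of the called barcodes of library 1 thinned to 60 UMIs, 13 of 4483 met the rule (0.290%, 0.154 to 0.495), against 98 of 44395 empty droplets (0.221%, 0.179 to 0.269). In library 2, 48 of 3275 called barcodes thinned to 320 UMIs met it (1.47%, 1.08 to 1.94), against 9 of 34456 empty droplets (0.0261%, 0.0119 to 0.0496). The intervals overlapped in library 1 and lay apart in library 2, so at this depth the library 1 share could not be told from that of empty droplets.

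Most members lay close to the minimum. In library 1, 48 of 53 members (90.6%) carried exactly 1 UMI of the rule features, with a median of 1 and a highest value of 4. In library 2, 132 of 331 members (39.9%) carried exactly 2, with a median of 3 and a highest value of 16. Just outside the rule, 258 barcodes of library 2 carried 1 UMI, and all 4430 other barcodes of library 1 carried 0.

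**Figure D1:**
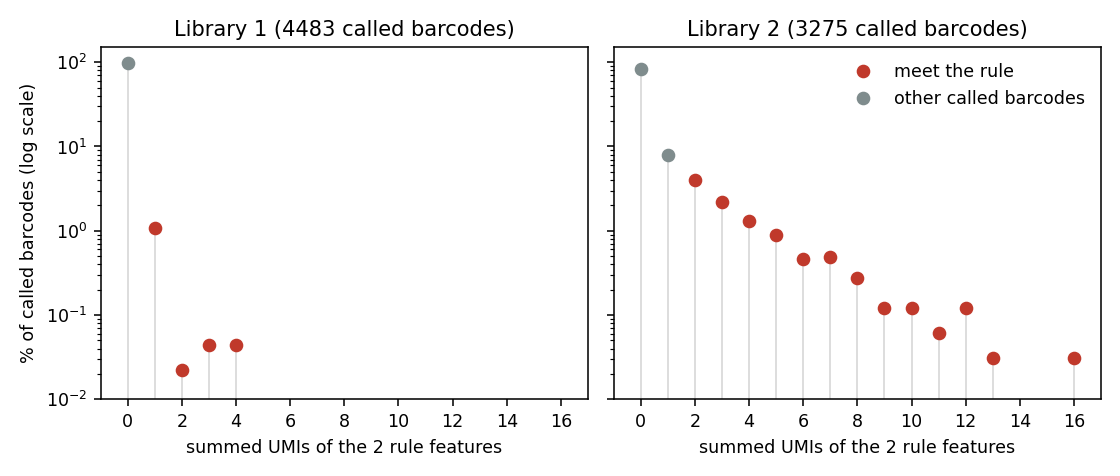
Share of called barcodes, in percent on a log scale, at each summed UMI count of DN31468_c1_g5 and DN24391_c1_g2, with members in red and other called barcodes in grey, for library 1 (left) and library 2 (right). Library 1 members stop at 4 UMIs, most of them at 1, while library 2 shows a long tail up to 16 UMIs.

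Members held slightly more UMIs than the rest. The median total was 343 UMIs in members and 287 in other barcodes of library 1, and 1562 in members and 1514 in others of library 2. In library 1 the share of barcodes meeting the rule was 0.802%, 1.06%, 1.26% and 1.61% over 4 classes of like size from the lowest to the highest totals. In library 2 it was 7.80%, 11.1%, 13.6% and 7.94%, highest in the third class, so members of library 2 were not simply the deepest barcodes.

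The 2 rule features occurred together in library 2. There 408 called barcodes carried DN31468_c1_g5 and 352 carried DN24391_c1_g2, and 171 carried both, where the product of the 2 shares gives 43.9. DN24391_c1_g2 was found in 41.9% of barcodes with DN31468_c1_g5 and in 6.31% of barcodes without it. Among the 331 members of library 2, 171 (51.7%) carried both features, 118 (35.6%) only DN31468_c1_g5 and 42 (12.7%) only DN24391_c1_g2. Part of this overlap follows from the rule, since a barcode with 1 UMI of each feature is a member and a barcode with 1 UMI of either alone is not. Library 1 had 20 carriers of DN31468_c1_g5, 34 of DN24391_c1_g2 and 1 of both, too few to show whether the features go together there.

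The level of DN31468_c1_g5 was 1305 CPM (UMIs per 1000000 UMIs of the same barcodes) in members and 18.7 CPM in other barcodes of library 2, against 5.09 CPM in empty droplets. In library 1 it was 869 CPM in members and 0 in others by the rule, with 12.2 CPM over all called barcodes (7.57 to 18.7) and 3.39 CPM in empty droplets (1.55 to 6.43). The level of DN24391_c1_g2 was 640 CPM in members and 21.8 CPM in other barcodes of library 2, against 24.8 CPM in empty droplets. In library 1 it was 1780 CPM in members and 0 in others by the rule, with 25.1 CPM over all called barcodes (18.1 to 33.7) and 33.5 CPM in empty droplets (26.9 to 41.2). DN31468_c1_g5 was thus above the empty droplets in the called barcodes of both libraries. DN24391_c1_g2 was not above them in library 1, although 33 of the 53 members of library 1 were members through that feature alone.

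Of the other features of the same assembly components, 2 of component DN31468 were called higher in members and none of component DN24391. In library 2, DN31468_c1_g1 was at 36 UMIs in members and 15 in others (56.4 and 2.36 CPM), and in library 1 at 1 UMI in each group. DN31468_c1_g2 was at 38 UMIs in members and 23 in others of library 2 (59.6 and 3.61 CPM), and at 1 and 0 UMIs in library 1. Both passed edgeR's quasi-likelihood test with Benjamini-Hochberg adjustment, at adjusted p = 6.70e-12 and adjusted p = 1.24e-10. In component DN24391, DN24391_c1_g3 was at 18 UMIs in members and 80 in others of library 2 and at 1 and 28 in library 1, and edgeR's test did not call it (log2 fold change 1.11, SE 0.59, adjusted p = 0.260). DN31468_c1_g4 (2 UMIs in members and 1 in others of library 2) and DN24391_c1_g1 (0 and 3) were too rare to be tested. Features of 1 component can share reads, so these values are not separate evidence from the rule features.

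Across the other features the summed UMIs of members differed from those of other barcodes, with more features called higher than lower. UMI counts were summed over members and over other barcodes of each library, without the rule features, and compared with edgeR's quasi-likelihood test with library as a block. Of 11468 features tested, 1232 were called at an adjusted p under 0.05 (10.7%). Of these, 868 were higher in members (7.57% of those tested) and 364 lower (3.17%), while the median log2 fold change of all tested features was -0.13. The members were chosen on the same barcodes, and the p-values do not account for that choice. The calls also need the library block: without it edgeR called 0 features, with 748 at an unadjusted p under 0.05, against 2429 with the block, and DESeq2 with library in its design called 737.

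The called differences rested mainly on library 2. The 868 higher features had a median log2 fold change of 2.12 (1.28 to 4.76), and all 868 were above 1-fold in library 2. In library 1, 686 of them were above 1-fold, 802 had fewer than 10 UMIs in the members, and 181 had 0 there. Of the 364 lower features, all 364 were below 1-fold in library 2 and 344 in library 1, where 179 had 0 UMIs in the members. Only 66 of the higher features had at least 10 UMIs in the members of each library. With the rule raised to at least 2 UMIs in library 1 and at least 4 in library 2, which leaves 5 and 128 members, 59 features were called, 58 of them higher. In that setting the members were set against barcodes with 0 rule UMIs, and the barcodes between were left out.

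Folds were also counted without a model. Of 11730 features with at least 10 UMIs in the called barcodes of each library, 2097 were at least 2-fold higher in members of library 1 (17.9%) and 1584 in members of library 2 (13.5%). In both libraries 823 were (7.02%), which is 39.2% of the library 1 list and 52.0% of the library 2 list. Of the library 1 list, 725 features (34.6%) rested on a single member UMI. Among the 1096 features with at least 5 UMIs in library 1 members, 411 were 2-fold higher in library 1 and 258 in library 2. The 220 in both lists were 53.5% of the library 1 list, while 23.5% of all 1096 were 2-fold higher in library 2.

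**Figure D2:**
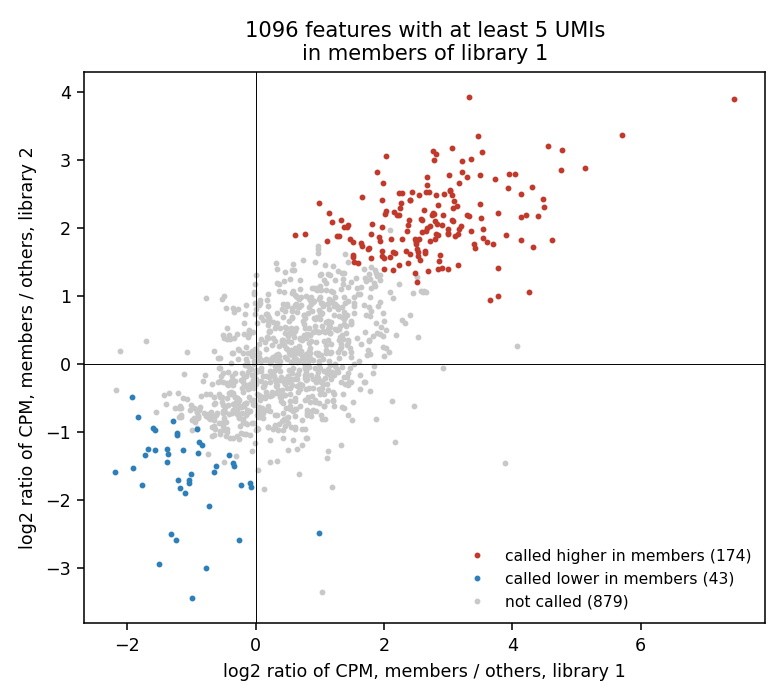
Log2 ratio of CPM in members to CPM in other called barcodes, library 1 on the horizontal and library 2 on the vertical axis, for the 1096 features with at least 5 UMIs in library 1 members; each point is a feature. The 174 plotted features that edgeR called higher (red) all lie right of 0 in library 1, 1 of the 43 called lower (blue) does, and so do 632 of the 879 not called (grey). The minimum of 5 UMIs and the calls use the same library 1 counts, so positions in library 1 are in part set by the choice of features.

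The features named next were taken by 1 rule: the 12 called higher, with at least 10 UMIs in members of each library and outside the components of the rule features, whose smaller library ratio was largest. They were thus picked for their size, and their folds describe them. The pair at the head belong to 1 component, DN29933. DN29933_c1_g4 had 15 UMIs in members and 6 in others of library 1, and 216 in members and 145 in others of library 2. That is 623 CPM in members against 3.55 CPM in others of library 1, and 339 CPM in members against 22.8 CPM in others of library 2. Its fold was 176 in library 1 (64.4 to 552) and 14.9 in library 2 (12.0 to 18.5), and edgeR's test gave a log2 fold change of 4.76 (SE 0.51, adjusted p = 1.12e-16). It was found in 32.9% of members, 3.77% of others and 0.508% of the shallower empty droplets of library 2, and in 20.8%, 0.135% and 0.110% of those of library 1. Its level in empty droplets was 18.8 CPM in library 1, above that of the others, and 17.2 CPM in library 2, below that of the others. The library 1 fold is thus taken over a level below that of empty droplets.

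DN29933_c2_g1 was the most widespread of the 12 among library 2 members. It had 35 UMIs in members and 47 in others of library 1, and 1236 in members and 1193 in others of library 2. At least 1 UMI was found in 90.0% of members, 18.8% of others and 4.0% of empty droplets of library 2. Levels were 1938 CPM in members, 187 CPM in others and 139 CPM in empty droplets of library 2. In library 1 they were 1453, 27.8 and 85.1 CPM in the same order, so the other barcodes lay below the empty droplets. The fold was 52.3 in library 1 and 10.3 in library 2 (edgeR log2 fold change 4.11, SE 0.46, adjusted p = 5.92e-15).

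DN33011_c2_g7 was a further feature found in most members of library 2. It had 41 UMIs in members and 249 in others of library 1, and 4634 in members and 5320 in others of library 2. In library 2 it stood at 7264 CPM in members, 836 CPM in others and 747 CPM in empty droplets, and in 89.1%, 33.3% and 19.4% of their barcodes. In library 1 it stood at 1702 CPM in members, 147 CPM in others and 317 CPM in empty droplets. The fold was 11.6 in library 1 and 8.69 in library 2 (edgeR log2 fold change 3.04, SE 0.50, adjusted p = 4.22e-07). Its level in others was near that of empty droplets in library 2 and below it in library 1.

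DN29475_c0_g1 had 14 UMIs in members and 64 in others of library 1, and 993 in members and 1433 in others of library 2. It was in 84.9% of members, 20.3% of others and 2.93% of empty droplets of library 2, at 1556 CPM in members against 225 CPM in others. DN27763_c1_g2 had 21 UMIs in members and 131 in others of library 1, and 605 in members and 879 in others of library 2, where it was in 61.6% of members and 15.7% of others. The 2 features had folds of 15.4 and 11.3 in library 1 and of 6.92 and 6.87 in library 2.

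Of the other 7, DN31161_c0_g1 had only 32 UMIs in members and 21 in others of library 2, a fold of 15.2 (8.5 to 27.7), and a fold of 10.0 in library 1. DN20018_c0_g2 (23.4-fold in library 1 and 9.24-fold in library 2), DN25217_c0_g1 (10.2 and 8.05), DN32748_c0_g4 (27.0 and 7.23), DN27203_c1_g2 (9.31 and 7.06), DN33178_c5_g1 (13.3 and 6.56) and DN26777_c2_g6 (6.33 and 6.74) had 10 to 15 UMIs in library 1 members. In edgeR's test the 12 features had adjusted p between 1.12e-16 and 2.16e-04. None of the 12 passed with the higher rule minima (highest adjusted p = 0.9998) or without the library block (highest adjusted p = 0.794). Their log2 fold changes were then 1.98 to 5.81 and 1.94 to 4.62, against 2.44 to 4.76 with the rule and block as given. After thinning to the library minimum 10 of 12 passed.

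**Figure D3:**
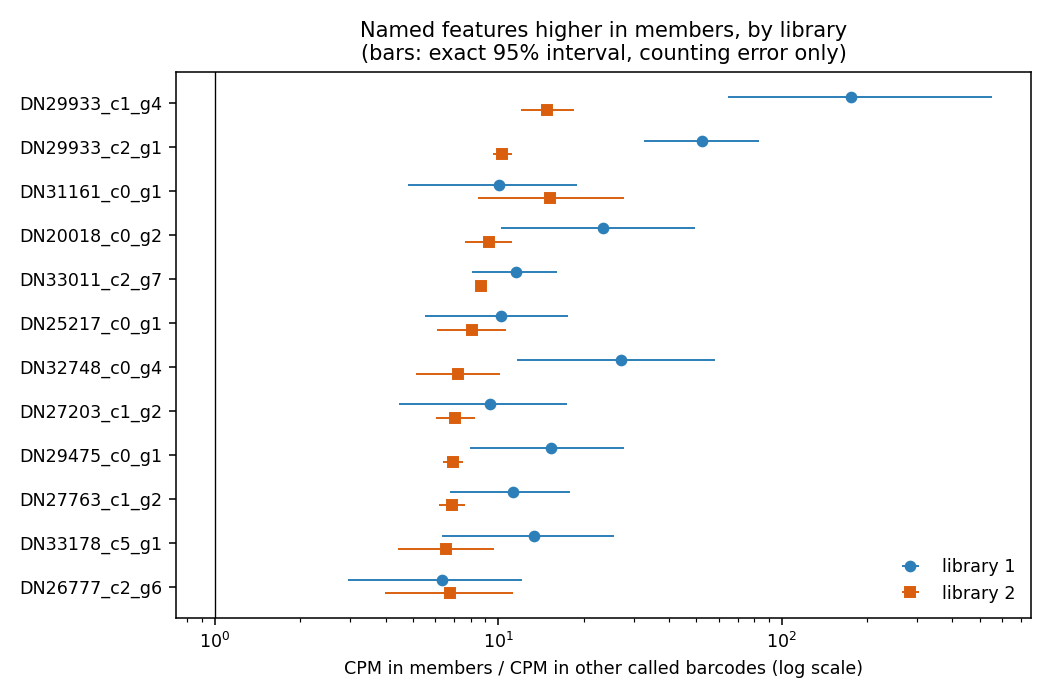
CPM in members divided by CPM in other called barcodes, on a log scale, for the 12 features named by rule, with library 1 as blue circles, library 2 as orange squares and bars for exact 95% intervals that cover counting error only. All 24 points lie above 1, between 6.33 and 176, and the library 1 bars are the wider ones.

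The level of several of these features followed the UMIs of the rule features within library 2. From 0 through 1, 2 to 3, 4 to 9 and 10 or more rule UMIs (2686, 258, 203, 116 and 12 barcodes), DN29933_c2_g1 was at 129, 842, 1516, 2341 and 4295 CPM. DN29933_c1_g4 was at 15.1, 109, 248, 438 and 723 CPM over the same classes. DN33011_c2_g7 was at 585, 3632, 6734, 7575 and 12123 CPM. The last class holds only 12 barcodes, and the order of the first 4 classes is the same without it. DN20018_c0_g2 did not go on increasing, at 21.7, 195, 334, 330 and 321 CPM. DN25217_c0_g1, DN27203_c1_g2, DN33178_c5_g1 and DN26777_c2_g6 also did not increase from the third class to the fourth. Their levels were 146, 464, 86.3 and 40.5 CPM at 2 to 3 rule UMIs. At 4 to 9 they were 136, 372, 53.7 and 37.2 CPM. The rest of the 12 features named by rule increased over the first 4 classes. Barcodes with exactly 1 rule UMI, which the rule leaves out, lay between the barcodes with 0 and the members for DN29933_c2_g1, DN29933_c1_g4, DN33011_c2_g7 and DN20018_c0_g2. These values are a description, since the classes are cut from the same UMIs as the rule.

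**Figure D4:**
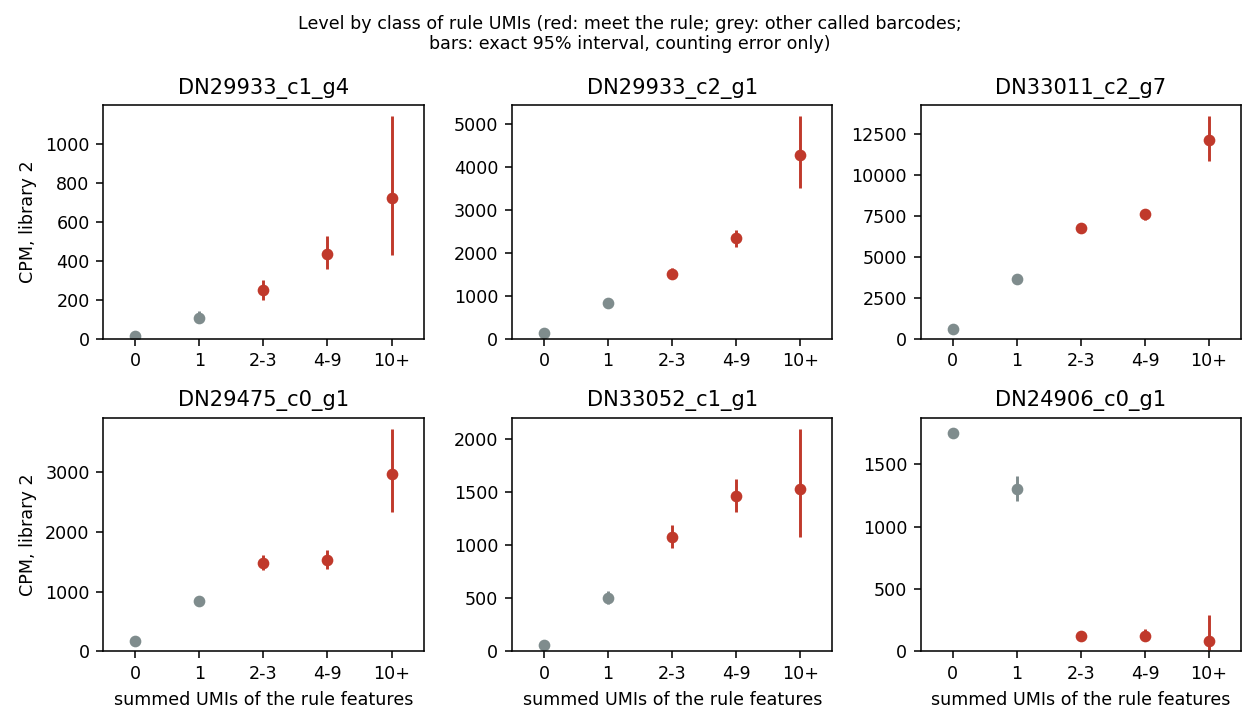
Level in library 2 (CPM) of 6 features against the summed UMIs of the rule features, with members in red, other called barcodes in grey and bars for exact 95% intervals that cover counting error only. Across the first 4 classes, 5 features increase with each class, while DN24906_c0_g1 is at 1750 and 1303 CPM at 0 and 1 UMI and at 124 CPM in the next 2 classes.

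Members carrying either rule feature alone differed in some of these features. In library 2, DN29933_c1_g4 was at 684 CPM (516 to 888) in members with only DN24391_c1_g2, at 108 CPM (69.0 to 160) in members with only DN31468_c1_g5, at 408 CPM (343 to 483) in members with both, and at 15.1 CPM (12.1 to 18.6) in barcodes with neither. All 15 of its UMIs in library 1 members were in the 33 barcodes with only DN24391_c1_g2, and the 19 with only DN31468_c1_g5 had 0. DN23441_c0_g3 showed the opposite order in library 2, at 232 CPM (140 to 362) with only DN24391_c1_g2, 556 CPM (463 to 663) with only DN31468_c1_g5, 606 CPM (526 to 696) with both and 26.4 CPM with neither. Both features were above the barcodes without rule UMIs in each of the 3 classes of library 2. Cells are not replicates, so no test of these differences was made.

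The 8 features called higher with the smallest adjusted p, outside those named by rule, were chosen after values were seen. Only features called higher were eligible, so their direction follows from the choice. They rest on 1 to 9 UMIs in library 1 members. DN33052_c1_g1 had 3 UMIs in members and 41 in others of library 1, and 790 in members and 610 in others of library 2. It was in 73.7% of members, 11.2% of others and 0.270% of empty droplets of library 2. DN24518_c0_g4 had 9 and 57 UMIs in library 1 and 772 and 752 in library 2, where it was in 74.3% of members and 13.6% of others. DN29715_c0_g1 had 5 and 3 UMIs in library 1 and 438 and 486 in library 2, where it was in 61.3% of members and 9.34% of others. DN23441_c0_g3 had 1 and 14 UMIs in library 1 and 345 and 247 in library 2. The remaining 4 were DN25600_c0_g3, DN23932_c0_g2, DN26717_c0_g1 and DN23468_c2_g4, with folds of 11.7, 11.1, 16 and 12 in library 2.

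Among features lower in members, the 6 named by rule had at least 50 UMIs in the others of each library and came first by the higher of the 2 library ratios of CPM. A feature with 0 UMIs in members comes first in that order whatever its level, so these are not shown to be the largest falls. DN13098_c0_g1, DN22308_c0_g1, DN24639_c0_g3, DN24745_c0_g1 and DN28319_c0_g1 had 0 UMIs in the members of both libraries. In the other barcodes they had 73, 71, 147, 80 and 51 UMIs in library 1 and 92, 186, 233, 78 and 70 UMIs in library 2. Against a floor of 3 counts over all members of library 2, they were at least 3.07-fold, 6.21-fold, 7.78-fold, 2.61-fold and 2.34-fold lower. These bounds cover counting error of UMIs only. In the same order, the features were found in only 0.713%, 3.53%, 1.02%, 1.97% and 1.83% of the other barcodes of library 2. The floor does not allow for UMIs gathered in few barcodes, so the bounds are not firm. In library 1 the same floor lies above the level of the others, so no fold is given. The adjusted p of edgeR's test lay between 1.46e-04 and 0.0349 for these 5.

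The sixth, DN29779_c0_g3, had 0 UMIs in members and 101 in others of library 1, and 2 in members and 855 in others of library 2 (edgeR adjusted p = 5.13e-07). It was 42.8-fold lower in library 2 members (11.8 to 354). In the members of library 2 it was in 0.604% of barcodes, against 3.09% of others and 0.856% of empty droplets. DESeq2 and the higher UMI minima each left 2 of the 6 past the threshold, and the higher rule minima left 0.

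The features used to recognise 9 other groups of barcodes in these libraries, 12 features in all, gave no call above the others. Of the 12, 7 were lower in members, 0 higher and 5 not called, against 3.17% and 7.57% called lower and higher among all tested features. DN22219_c0_g1 had 3 UMIs in members and 3724 in others of library 1, and 20 in members and 1453 in others of library 2 (edgeR log2 fold change -3.48, SE 0.50, adjusted p = 5.59e-09). DN20392_c0_g1 had 11 and 1320 UMIs in library 1 and 135 and 10735 in library 2 (-2.39, SE 0.48, adjusted p = 4.62e-05). DN29924_c0_g1 had 0 and 101 UMIs in library 1 and 3 and 892 in library 2 (-4.94, SE 0.84, adjusted p = 1.12e-06). DN23294_c1_g2, DN26570_c0_g1, DN30860_c0_g6 and DN32476_c1_g1 were the other 4 called lower. DN32476_c1_g1 had 0 UMIs in either group of library 1 and 8 in members and 904 in others of library 2, and its log2 fold change turned to 1.26 with DESeq2 (adjusted p = 0.941). DN20394_c0_g1, DN29970_c0_g1, DN22494_c0_g1, DN23946_c0_g1 and DN27834_c0_g1 had adjusted p between 0.287 and 0.965.

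The 7 features called lower differed in library 2 more in UMIs per barcode than in how many barcodes carried one. Between 0.906% and 25.1% of members carried a UMI of each, against 1.12% to 26.4% of others. DN20392_c0_g1 was in 25.1% of members, 26.4% of others and 24.6% of the shallower empty droplets of library 2, while its level was 212 CPM in members, 1686 CPM in others and 1213 CPM in empty droplets. DN26570_c0_g1 was in 4.53% of members and 3.97% of others of library 2, at 130 CPM in members and 694 CPM in others. DN30860_c0_g6 was in 5.44% of members and 6.76% of others, at 67.4 CPM in members and 530 CPM in others.

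Some members also carried features of those groups. Of 56 library 2 barcodes with at least 2 UMIs of DN26570_c0_g1, 8 met the rule (14.3%, 6.38 to 26.2), as did 5 of 39 for DN22219_c0_g1 (12.8%, 4.30 to 27.4). It was 20 of 275 for DN20392_c0_g1 with DN23294_c1_g2 (7.27%, 4.5 to 11.01), 5 of 83 for DN20394_c0_g1 with DN29970_c0_g1 (6.02%, 1.98 to 13.5), 4 of 54 for DN22494_c0_g1 with DN23946_c0_g1 (7.41%, 2.06 to 17.9), 6 of 133 for DN30860_c0_g6 (4.51%, 1.67 to 9.56) and 0 of 16 for DN29924_c0_g1 (0%, 0 to 20.6). For DN27834_c0_g1 it was 1 of 67 (1.49%, 0.0378 to 8.04) and for DN32476_c1_g1 1 of 59 (1.69%, 0.0429 to 9.09). The share over all called barcodes was 10.1%. Barcodes with the highest doublet scores held 12 of 331 members (3.63%) and 74 of 2944 others (2.51%) in library 2, and without them 862 features were called higher and 365 lower.

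A further 6 features were chosen after values were seen, for the smallest adjusted p among those called lower, so their direction follows from the choice. DN24906_c0_g1 had 0 UMIs in members and 260 in others of library 1, and 78 in members and 10908 in others of library 2, 14.0-fold lower in library 2 members (11.2 to 17.7). DN23395_c0_g6 had 0 UMIs in members and 1691 in others of library 1, at least 8.03-fold lower against the floor of 3 counts over the members. That floor does not allow for UMIs gathered in few barcodes, and 5.37% of those others carried the feature. In library 2 DN23395_c0_g6 had 31 UMIs in members and 2916 in others and was 9.43-fold lower (6.63 to 13.9). DN22080_c0_g2, DN28442_c1_g1, DN26292_c1_g4 and DN29675_c1_g3 were 20.9-fold, 18.0-fold, 17.6-fold and 14.4-fold lower in library 2 members, with 2, 0, 0 and 0 UMIs in library 1 members. The shares of library 2 barcodes carrying these features differed less than the folds. DN24906_c0_g1 was in 10.9% of members and 13.0% of others, DN23395_c0_g6 in 5.74% and 6.08%, and DN22080_c0_g2 in 3.02% and 5.13%. For DN28442_c1_g1, DN26292_c1_g4 and DN29675_c1_g3 the shares were 6.65% and 13.3%, 5.74% and 13.8%, and 7.25% and 13.2%.

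The median member of library 2 held more features than the median other barcode at equal depth. Thinned to the library minimum, the median member of library 2 held 655 features and the median other barcode 590, a difference of 65. Quartiles were 589 and 716 in members and 476 and 676 in others. In library 1 the medians were 154 in members and 151 in others, a difference of 3, with quartiles of 141 and 158 in members and 143 and 156 in others. These medians were not tested.

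Clusters made without any feature of the components DN31468 and DN24391 gathered many members in 1 place. Of 32 clusters, cluster 3 held 137 of 331 members of library 2 (41.4%, 36.0 to 46.9), against 241 of 2944 others (8.19%, 7.22 to 9.24). In library 1 it held 16 of 53 members (30.2%, 18.3 to 44.3), against 150 of 4430 others (3.39%, 2.87 to 3.96). Members made up 36.2% of cluster 3 in library 2 and 9.64% in library 1, so most barcodes of the cluster did not meet the rule.

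The rest of the members were spread widely. Cluster 1 held 83 library 2 members (25.1%), against 628 others (21.3%), and 16 library 1 members (30.2%), against 762 others (17.2%). Members fell in 24 clusters in library 2 and in 14 in library 1. The members were thus not gathered in 1 cluster at this setting. Whether they are 1 kind of cell was not tested. In library 2 the share in cluster 3 was 6.37% at 0 rule UMIs, 27.1% at 1, 43.8% at 2 to 3, 36.2% at 4 to 9, and 6 of the 12 barcodes with 10 or more lay there. Members with only DN24391_c1_g2 (47.6%, 32 to 63.6), with only DN31468_c1_g5 (37.3%, 28.6 to 46.7) and with both (42.7%, 35.2 to 50.5) lay in cluster 3 at shares whose intervals overlap.

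**Figure D5:**
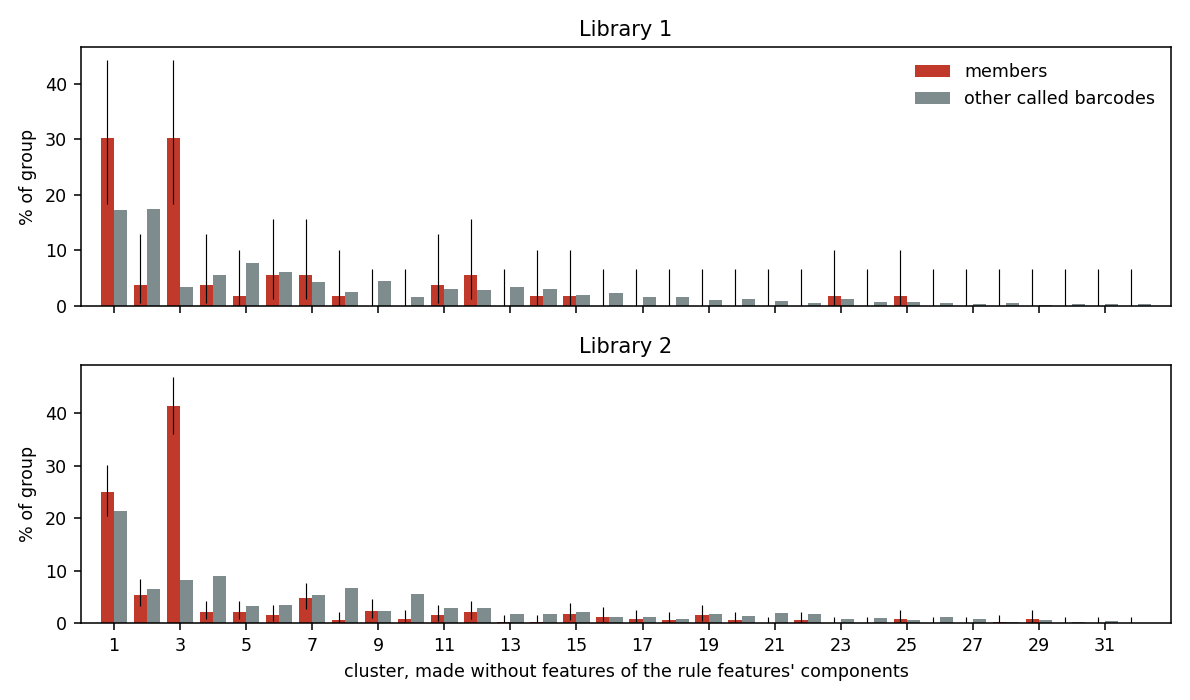
Share of members (red) and of other called barcodes (grey) in each of the 32 clusters, in percent of their group, for library 1 (top) and library 2 (bottom), with exact 95% binomial intervals on the members' bars. Cluster 3 holds 30.2% of members in library 1 and 41.4% in library 2, and cluster 1 holds 30.2% and 25.1%.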

How the data were processed

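Per the file headers and the submitters' processing notes, the deposited matrix holds raw UMI counts per feature and barcode from Cell Ranger 3.0.2, with both libraries pooled and every barcode of the kit lists. The reference, the aligner settings and any equalising of depth are not given in the sources used here. Barcode suffixes were matched to the run numbers in the labels. No column of another sample was present (0 columns).

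Barcodes were called in each library from the 99th percentile of the 3000 largest UMI totals divided by 10. Empty droplets were barcodes within 20% of the most common total. UMI counts were summed per library over members and over other called barcodes, without the rule features. These 4 sums were tested with edgeR 4.0.16 (filterByExpr, TMM, glmQLFit and glmQLFTest, library as a block, Benjamini-Hochberg adjustment, threshold 0.05). The block pairs the members and others of 1 library, which share a suspension and a run. The SE is the log2 fold change over the square root of F. Intervals are exact binomial or conditional at 95%. DESeq2 1.42.0 was an alternative, and the code was tested on simulated data.

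For clusters, UMI counts were scaled to 10000 per barcode and log-transformed, without features of the components of the rule features. The 2000 most variable features were scaled within each library, with 30 principal components, 15 neighbours and Leiden clustering (leidenalg 0.10.2, resolution 1). Doublet scores came from the Scrublet routine of scanpy 1.11.5. Its automatic threshold marked 0.0223% of barcodes in library 1 and 0% in library 2 and had not worked, so the highest scores were removed as an alternative, at 0.8% per 1000 called barcodes.

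Features were named by rule: the 12 higher and 6 lower ones described with their values, the components of the rule features and the 12 features of 9 other groups. A further 8 higher and 6 lower features with the smallest adjusted p were added after values were seen. The members and lists were chosen with earlier results of these data known.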

Additional observations from a re-analysis of the deposited data

Results flagged for a closer look

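Barcodes below the UMI minimum, which the comparisons do not use, also met the rule: 155 in library 1 and 143 in library 2. In library 1 their median total was 67 UMIs, close to the most common empty-droplet total of 60. In library 2 it was 796 UMIs, well above the most common empty-droplet total of 320. Called barcodes held 52.8% of the UMIs of the 2 rule features in library 2 and 20.6% of all UMIs there. In library 1 they held 26.8% of the rule features' UMIs and 26.1% of all UMIs. Of 10692 uncalled barcodes of library 2 with at least 480 UMIs, 123 met the rule (1.15%), against 0.0261% of empty droplets. Of 7425 uncalled barcodes of library 1 with at least 90 UMIs, 28 did (0.377%), against 0.221% of empty droplets. The rule was therefore met more often than in empty droplets also below the minimum in library 2, although the deeper barcodes had more chance to reach 2 UMIs. The part of depth in these shares was not tested.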

How the results depend on the processing

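The number of calls depended strongly on the setting, and no feature was called in the opposite direction under the edgeR and DESeq2 settings listed here (0 reversed calls). All of these settings draw on the same called barcodes, so they are not independent checks. DESeq2 called 737 features (541 higher, 196 lower), and edgeR without a low-count filter 2138 of 21496 (1358 and 780). With no replicate block edgeR called 0 (0 higher, 0 lower; 748 at an unadjusted p under 0.05). Thinning every called barcode to its library minimum gave 234 (197 and 37). Member minima of 2 and 4 UMIs, set against barcodes with 0 rule UMIs, gave 59 (58 and 1). UMI minima times 1.5 gave 773 (537 and 236). DESeq2's size factors in edgeR gave 640 lower features, and setting the members against barcodes with 0 rule UMIs gave 786. With the rule applied to the UMIs of DN31468_c1_g5 alone, 544 features were called (427 and 117). Applied to those of DN24391_c1_g2 alone, it gave 675 (407 higher), and both settings were chosen after seeing the data. In each, the members could also carry the other rule feature, and so could the barcodes they were set against. Weighting others to the members' totals and removing likely doublets gave 1163 and 1227. Of the 868 higher features, 868, 511, 770, 196, 57 and 837 were again called higher with DESeq2's size factors, DESeq2, weighting, thinning, the higher member minima and the barcodes with 0 rule UMIs. Leaving out a library leaves 1 sum per group and no residual degrees of freedom, so no calls can be counted.

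The count 2-fold higher in both libraries became 519 with the higher member minima and 311 with at least 50 UMIs per feature, and leaving out either library gave 1584 to 2097. Library 1 had 5 members with the higher minima and 28 after thinning, and library 2 had 128 and 219, and 171 with UMI minima times 1.5. The library 2 share in the leading cluster was 36.0% with 15 components and 50.8% when clustered alone. Without thinning, library 1 members held 38 more features. DN32476_c1_g1 had a log2 fold change of 1.26 with DESeq2 (adjusted p = 0.941; 4.07e-08 to 0.9998 over its settings). The cause of these changes was not tested, except that fewer members or UMIs enter under the higher minima and thinning. For the calls and the 2-fold count, the higher member minima also limit the other barcodes to those with 0 rule UMIs.

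The 53 members of library 1 hold 24157 UMIs, against 639194 in library 2, so a count of 0 allows up to 124 CPM in library 1 members (3 counts) and 4.7 CPM in library 2 members. At 0 UMIs in library 1 members a feature is therefore not shown to be lower there unless the others exceeded 124 CPM. DN23395_c0_g6, at 999 CPM in the others of library 1, lay above that limit. It was found in only 5.37% of those barcodes, and the limit does not allow for UMIs gathered in few barcodes. With 53 members, its 0 UMIs there therefore do not settle that it was lower in library 1.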

Other observations

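The uncalled barcodes of library 2 with at least 480 UMIs allow the named features to be looked at in barcodes that were not used for the calls. In the 123 that met the rule, all 12 of the higher features named by rule were above their level in the other barcodes of that range. Some rest on few UMIs in those 123: DN31161_c0_g1, DN33178_c5_g1 and DN26777_c2_g6 on 4 each and DN32748_c0_g4 on 8. DN29933_c1_g4 was at 576 CPM in barcodes meeting the rule and 24.5 CPM in the rest, a fold of 23.5 (17.1 to 31.95). DN29933_c2_g1 was at 2454 CPM against 188 CPM, a fold of 13.0 (11.3 to 14.96). DN33011_c2_g7 was at 6655 CPM against 960 CPM, a fold of 6.93 (6.39 to 7.51), and DN33052_c1_g1 at 1767 CPM against 36.8 CPM, a fold of 48.0 (39.4 to 58.5). The fold of DN23441_c0_g3 was 55.5 (39.5 to 77.7).

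Features lower in called members did not all keep their direction there. DN24906_c0_g1 was at 60.6 CPM in barcodes meeting the rule and 340 CPM in the rest. DN23395_c0_g6 was at 424 CPM in barcodes meeting the rule and 194 CPM in the rest, a fold of 2.19 (1.57 to 2.98), the opposite of called barcodes.

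In library 1 only 28 uncalled barcodes with at least 90 UMIs met the rule. DN29933_c1_g4 had 9 UMIs in them and 3 in the rest, and DN29933_c2_g1 had 17 in them and 40 in the rest. Of the 12 higher features, 7 had 0 UMIs there. These barcodes were drawn from the same 2 libraries, so they are not further replicates.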
